A study of Mus musculus with 4 samples.

Results

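The genes described here encode potassium channels and their auxiliary subunits, taken as every gene of the tables whose symbol is Kcn followed by lower-case letters and one number. There were 92 such genes among 21965 with a usable value. The tables come from RNA sequencing of sciatic nerves pooled from mice at postnatal day 7, on a mixed strain background. One table was from Zeb2 cKO mice, in which Zeb2, a zinc finger transcription factor, is conditionally deleted, and one was from mice labelled Control. The labels name neither the Cre line nor the deleted part, nor what alleles the Control mice carried. The labels give 2 samples a group and list 1 table under both. Whether a table holds one sample or the pair pooled is not stated, and each table is called a library here. Levels are FPKM, fragments per kilobase of transcript scaled to mapped fragments, summed over the transcripts of a gene.

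Potassium channels let potassium leave or enter a cell along its gradient and so set the resting potential and end action potentials. Voltage-gated channels open on depolarization, inward rectifiers pass current best near rest and carry potassium uptake by glia, tandem-pore (K2P) channels leak, and another class opens with intracellular calcium or sodium. In myelinated nerve, Kv1 channels are best known from the juxtaparanode of the axon, beneath the myelin next to the paranode. The nerve trunk holds axons without their cell bodies, so most of its RNA comes from Schwann cells, sheath cells, vessels and adjoining tissue.

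Each level below is 1 value a group with no replicate. Differences between the libraries are therefore given by size, without a test, and the 95% counting intervals on folds cover counting error only. They rest on about 20180394 estimated reads in the Zeb2 cKO library and 29616050 in the Control library. Zeb2 itself had 19.5 FPKM in Zeb2 cKO nerves, against 34.4 FPKM in Control nerves, in the direction of the labels. Its transcript is quantified over all exons, so undeleted exons and cells that kept the gene are counted. In such bulk tissue, fewer cells of a type and less RNA per cell cannot be told apart.

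The potassium channel transcripts of the nerve differed in make-up between the libraries. In the Zeb2 cKO library the inward rectifier Kcnj10 led, followed by Kcnn4, Kcnh2 and Kcnk2, whereas in the Control library Kcna1 led, followed by Kcnk1, Kcnmb4 and Kcnj10. Kcna1 made up 2.18% of the summed level of all 92 genes in the Zeb2 cKO library, against 26.9% in the Control library. Kcnj10 made up 25.9% in the Zeb2 cKO library and 9.31% in the Control library. The summed level was 224 FPKM in the Zeb2 cKO library and 313 FPKM in the Control library, 0.718 of the Control sum. Without Kcna1 the sums were 219.5 FPKM and 229 FPKM, in the same order, 0.960 of the Control sum.

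**Figure D1:**
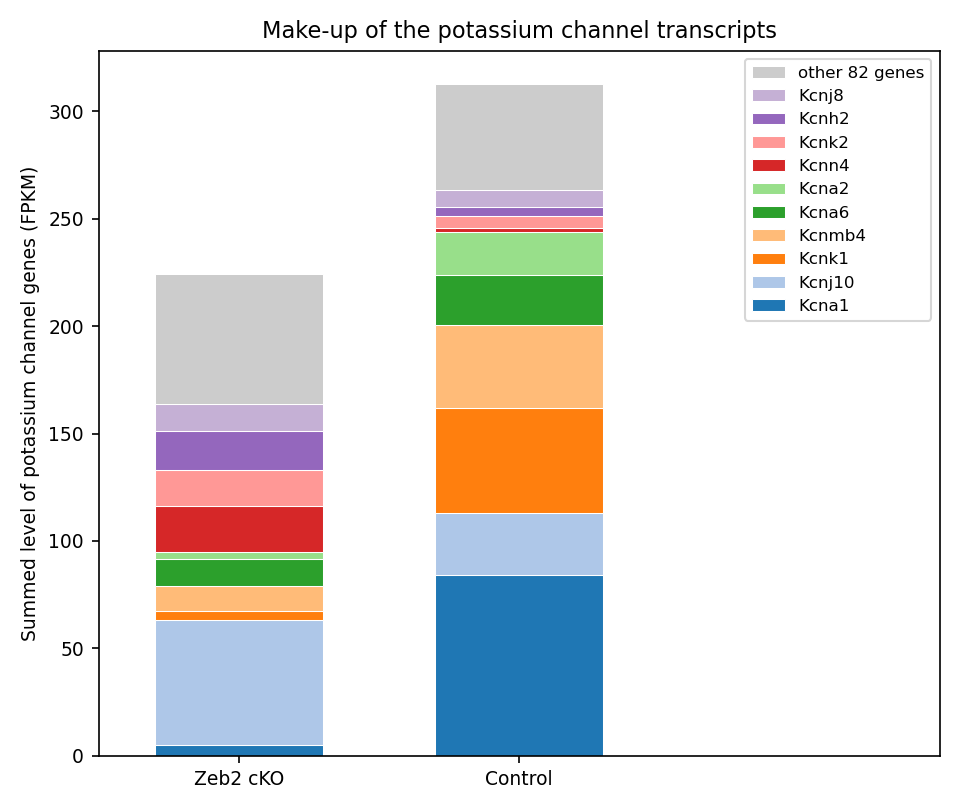
Summed level of the 92 potassium channel genes (vertical axis, FPKM) in the Zeb2 cKO library (left) and the Control library (right), 1 library each. Colours are the 10 genes with the highest mean level and grey is the remaining 82 genes; the Kcna1 block at the base is 4.90 FPKM in Zeb2 cKO and 83.9 FPKM in Control.

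Of the 92 genes, 31 reached a mean of 1 FPKM over both libraries and are called measured. At 10 FPKM or more there were 7 genes in the Zeb2 cKO library and 6 in the Control library, and 3 of these, Kcnj10, Kcna6 and Kcnmb4, were at that level in both. Ratios were taken as log2((FPKM Zeb2 cKO + 1)/(FPKM Control + 1)), which understates the difference of genes at low levels, and folds are plain FPKM ratios. By the ratio with the added 1 FPKM, 7 of the 31 passed 2-fold upward in the Zeb2 cKO library (22.6%, against 8.59% of all 12903 genes measured). Another 6 passed 2-fold downward (19.4%, against 6.25% of all genes measured), and the remaining 18 lay within 2-fold. By the plain FPKM ratio 10 of the 31 passed 2-fold upward, against 12.5% of all genes measured, and 7 downward, against 7.18%. The median log2 ratio of the 31 genes was 0.39, and that of all genes measured was 0.18. The Zeb2 cKO values were also divided so that the median gene is level, called rescaling below (division by 1.16). Then 30 members kept a mean of 1 FPKM or more, while Kcnt2 fell below it. Of these 30, 4 passed 2-fold upward (Kcnn4, Kcnh2, Kcnh8 and Kcnk2) and 8 downward. Of the 12795 genes at a mean of 1 FPKM or more after rescaling, 776 passed upward and 960 downward, against 1109 and 806 of 12903 before.

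**Figure D2:**
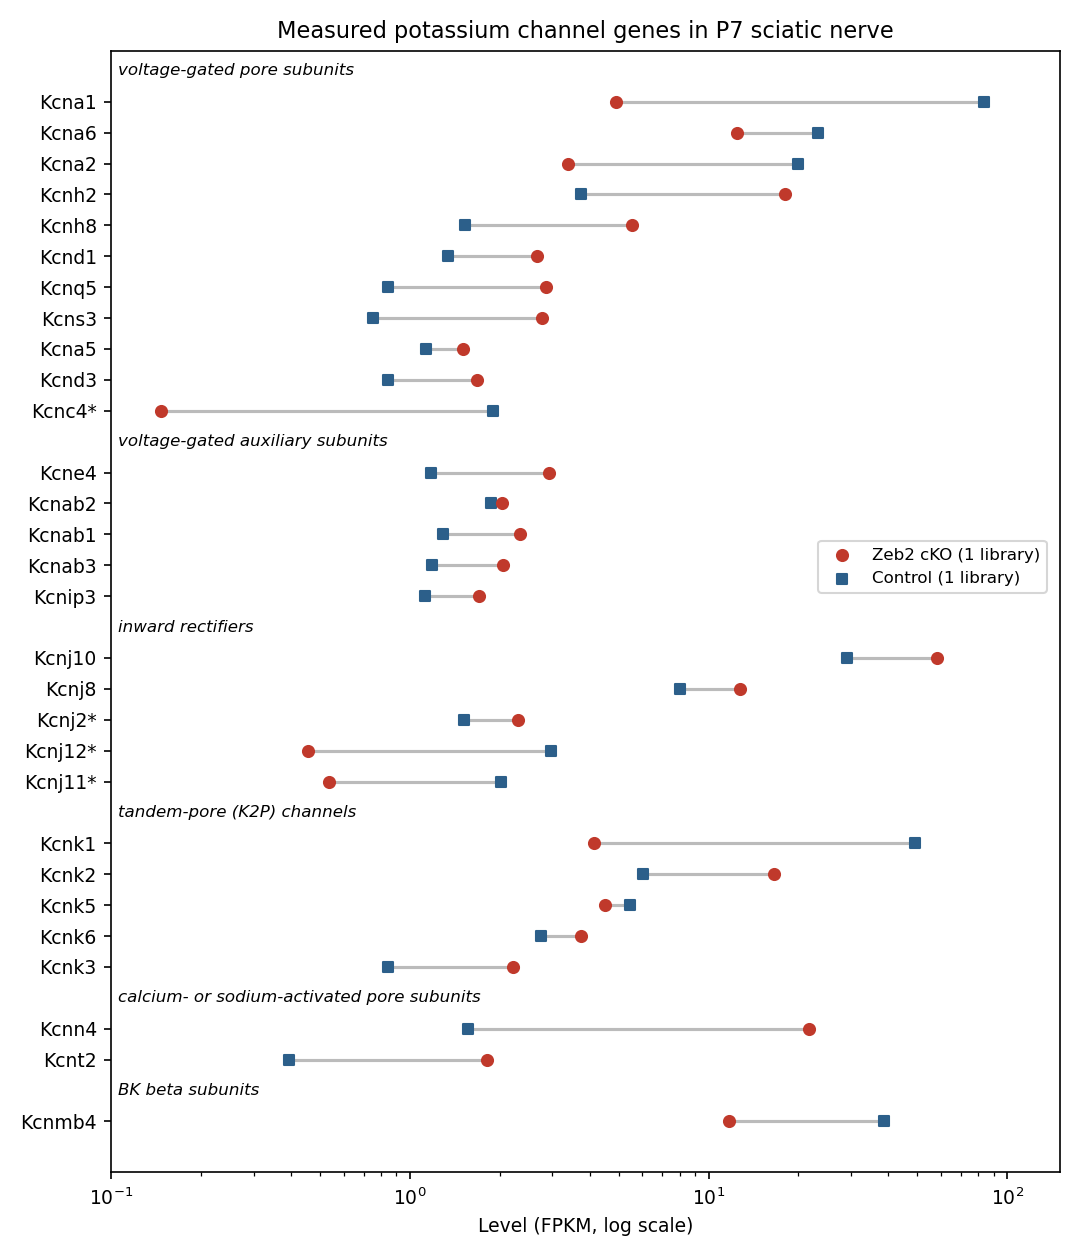
Level of 29 of the 31 measured potassium channel genes (horizontal axis, FPKM, log scale) in the Zeb2 cKO library (red circles) and the Control library (blue squares), 1 library each, grouped by class. Asterisks mark genes also known from skeletal muscle; Kcna1 has the longest bar of the voltage-gated genes above 10 FPKM, with 4.90 FPKM in Zeb2 cKO and 83.9 FPKM in Control.

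Among voltage-gated pore subunits, the Kv1 genes were the most abundant in the Control library and were lower in the Zeb2 cKO library. Kcna1, which encodes Kv1.1 (chromosome 6, 126586481 to 126595819, mm9), had 4.90 FPKM in the Zeb2 cKO library and 83.9 FPKM in the Control library. It was 17.1-fold lower (counting interval 16.1 to 18.3), the largest difference of any measured potassium channel gene by either scale. Kcna2, which encodes Kv1.2, a partner of Kv1.1 in axonal channels (chromosome 3, 106904485 to 106909797), had 3.38 FPKM in the Zeb2 cKO library and 19.9 FPKM in the Control library, 5.90-fold lower (5.22 to 6.70). Kcna6, which encodes Kv1.6 (chromosome 6, 126658347 to 126690692), had 12.4 FPKM in the Zeb2 cKO library and 23.2 FPKM in the Control library, 1.87-fold lower (1.77 to 1.97). That was short of 2-fold, and its log2 ratio was -1.05 after rescaling. Kcna5, encoding Kv1.5, had 1.51 FPKM in the Zeb2 cKO library and 1.13 FPKM in the Control library, with a log2 ratio of 0.23. The Kv1 genes measured thus spanned log2 ratios of -3.85 for Kcna1, -2.26 for Kcna2, -0.85 for Kcna6 and 0.23 for Kcna5. Kcna4, which encodes the inactivating channel Kv1.4, had a mean below 1 FPKM and was chosen after its values were seen. It had 1.12 FPKM in the Zeb2 cKO library and 0.253 FPKM in the Control library.

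Markers of myelinating Schwann cells were lower alongside Kcna1 and Kcna2, and neuronal markers went both ways within 2-fold. All 13 myelinating Schwann cell markers passed 2-fold downward, by 3.38-fold to 119-fold, with a median log2 ratio of -4.66. Their summed level was 1340 FPKM in the Zeb2 cKO library and 28028 FPKM in the Control library. Of 11 neuronal markers, 7 were measured, 0 of them 2-fold apart, with a median log2 ratio of 0.02 that became -0.11 after rescaling. The summed level of all 11 was 36.0 FPKM in the Zeb2 cKO library and 43.4 FPKM in the Control library, 0.830 of the Control sum. Uchl1, the most abundant of them, was 1.53-fold lower (1.37 to 1.72) and Tubb3 1.62-fold lower (1.32 to 1.99), whereas Stmn2 was 1.44-fold higher (1.25 to 1.65). Whether the level of myelinating Schwann cell or neuronal transcripts has a part in that of Kcna1 and Kcna2 was not tested.

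The ERG and ELK genes Kcnh2 and Kcnh8, and also Kcnq5 and Kcns3, were among the higher ones of the Zeb2 cKO library. Kcnh2, the ERG channel that repolarizes the heart (chromosome 5, 23825407 to 23857422), had 18.1 FPKM in the Zeb2 cKO library and 3.74 FPKM in the Control library, 4.83-fold higher (4.39 to 5.31). Kcnh8, an ELK channel of the same family, had 5.54 FPKM in the Zeb2 cKO library and 1.53 FPKM in the Control library, 3.61-fold higher (2.89 to 4.52). Kcnq5, a subunit of the slow M-type current, had 2.85 FPKM in the Zeb2 cKO library and 0.847 FPKM in the Control library, 3.37-fold higher (2.87 to 3.99). Kcns3, an electrically silent subunit that modifies Kv2 channels, had 2.76 FPKM in the Zeb2 cKO library and 0.755 FPKM in the Control library, 3.66-fold higher (2.79 to 4.81). After rescaling, Kcnq5 and Kcns3 were short of 2-fold with the added 1 FPKM, at log2 ratios of 0.91 and 0.95. Their Control levels were below that added 1 FPKM, and by plain FPKM both stayed above 2-fold. The A-type genes Kcnd1 and Kcnd3 were within 2-fold, with log2 ratios of 0.64 and 0.54.

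All 5 measured auxiliary subunits of voltage-gated channels had log2 ratios above 0, except Kcnab2 after rescaling (-0.05), and none reached 2-fold with the added 1 FPKM. Kcne4, a single-pass subunit that inhibits some Kv1 and Kv7 channels, had the highest, 0.85, with 2.92 FPKM in the Zeb2 cKO library and 1.17 FPKM in the Control library. The cytoplasmic Kv1 beta subunits Kcnab1, Kcnab2 and Kcnab3 had log2 ratios of 0.54, 0.09 and 0.49. Kcnab2, known as a partner of Kv1.1 and Kv1.2, had 2.04 FPKM in the Zeb2 cKO library and 1.86 FPKM in the Control library. Kcnip3, a calcium-binding protein of the Kv4 complex, had a ratio of 0.35. Kcne1l, whose symbol the rule leaves out because of its last letter, had 5.12 FPKM in the Zeb2 cKO library and 14.4 FPKM in the Control library, 2.81-fold lower.

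**Figure D3:**
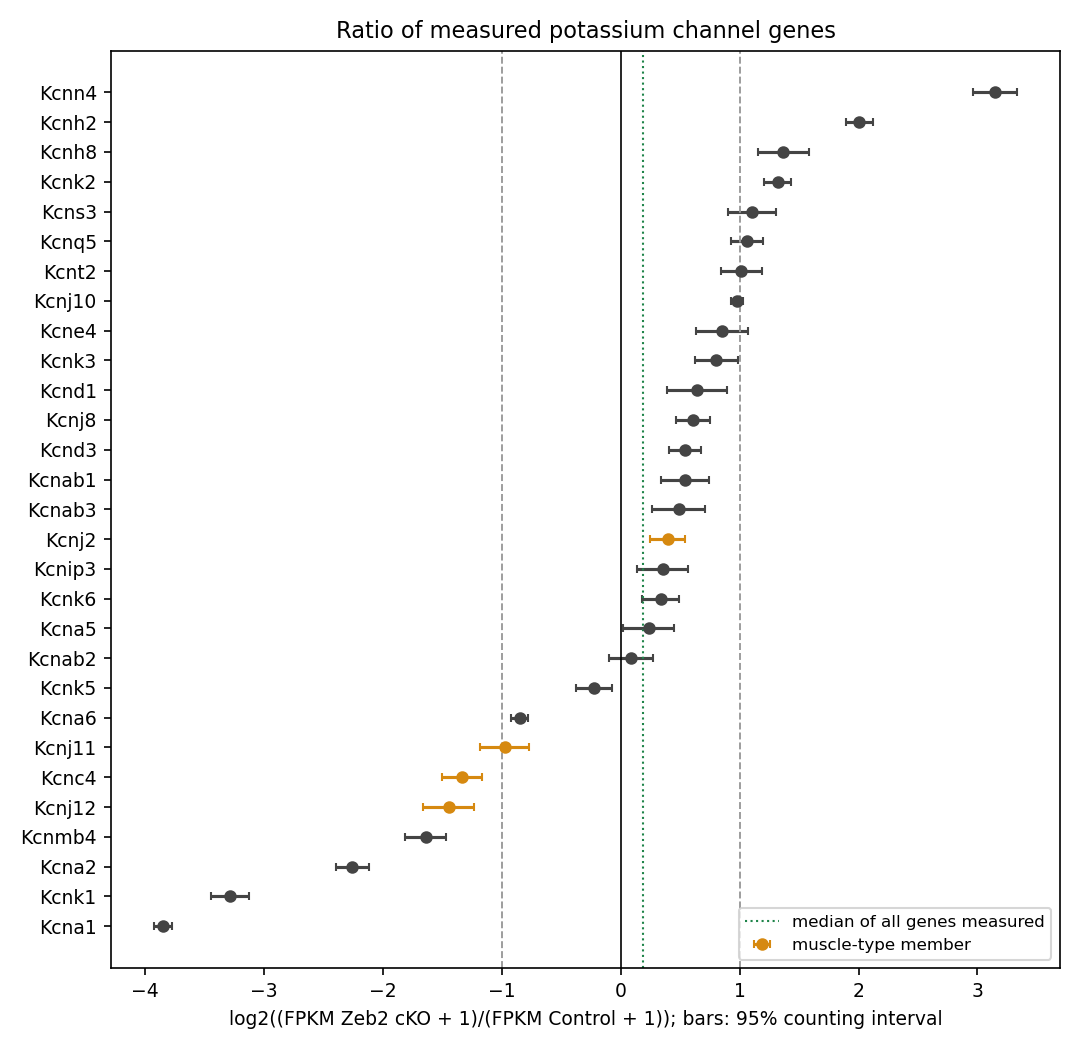
log2 ratio of 29 of the 31 measured potassium channel genes (horizontal axis, Zeb2 cKO over Control with 1 FPKM added; positive is higher in Zeb2 cKO), sorted, with approximate 95% counting intervals as bars. Dashed lines mark 2-fold, the dotted line the median of all genes measured (0.18), and orange the genes also known from skeletal muscle; Kcnn4 is at 3.14 at the top and Kcna1 at -3.85 at the bottom.

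Inward rectifiers differed by member. Kcnj10, which encodes Kir4.1, the channel by which astrocytes and other glia take up potassium (chromosome 1, 174271341 to 174304216), was the most abundant potassium channel transcript of the Zeb2 cKO library. It was at 58.2 FPKM there and 29.1 FPKM in the Control library, 2.00-fold higher (1.93 to 2.07) by FPKM and just within 2-fold with the added 1 FPKM, at a log2 ratio of 0.98. Kcnj8, the Kir6.1 pore of ATP-sensitive channels in pericytes and smooth muscle (chromosome 6, 142513459 to 142519876), had 12.7 FPKM in the Zeb2 cKO library and 8.03 FPKM in the Control library, 1.59-fold higher (1.42 to 1.77). Abcc9, which encodes the SUR2 subunit that pairs with Kir6.1, had 8.55 FPKM in the Zeb2 cKO library and 6.43 FPKM in the Control library. Markers of pericytes and vascular smooth muscle had a median log2 ratio of 0.36, with 2 of 11 higher (0 after rescaling) and 1 of 11, Des, lower by 2-fold or more. Their summed level was 442 FPKM in the Zeb2 cKO library and 404 FPKM in the Control library, and their part in the Kcnj8 level was not tested.

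The immature or nonmyelinating Schwann cell list stood beside Kcnj10. Of its 11 members, 5 passed 2-fold upward (4 after rescaling) and 3 downward, and the median log2 ratio was 0.88. Their summed level was 608 FPKM in the Zeb2 cKO library and 164 FPKM in the Control library, to which Gfap, a glial filament, contributed 300.1 FPKM and 0.914 FPKM in that order. Whether these cells carry the Kcnj10 transcripts was not tested.

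Genes known from skeletal muscle were lower, with one exception. Kcnj12, an inward rectifier of muscle and heart (Kir2.2), had 0.455 FPKM in the Zeb2 cKO library and 2.96 FPKM in the Control library, 6.51-fold lower (4.40 to 10.1). Kcnj11, the Kir6.2 pore of ATP-sensitive channels in muscle, neurons and pancreatic beta cells, had 0.537 FPKM in the Zeb2 cKO library and 2.03 FPKM in the Control library, 3.77-fold lower (2.65 to 5.44), though its log2 ratio with the added 1 FPKM was -0.98 (-1.05 after rescaling). Kcnc4, the fast voltage-gated channel Kv3.4, had 0.147 FPKM in the Zeb2 cKO library and 1.90 FPKM in the Control library, 12.9-fold lower, with an interval of 6.88 to 25.6 because the Zeb2 cKO value rests on about 11 reads. Kcna7, a Kv1 gene of muscle and heart, was below the mean of 1 FPKM, with 0.235 FPKM in the Zeb2 cKO library and 1.12 FPKM in the Control library. The exception was Kcnj2, the Kir2.1 channel that muscle shares with endothelium and other cells, with 2.30 FPKM in the Zeb2 cKO library and 1.51 FPKM in the Control library. Of the 5 muscle-type genes, 4 were measured and 2 of these were 2-fold or more lower.

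Skeletal muscle markers moved with these genes. All 22 markers passed 2-fold downward, by 5.81-fold to 21.1-fold, and their median log2 ratio was -2.89. Their summed level was 1155 FPKM in the Zeb2 cKO library and 9375 FPKM in the Control library, 0.123 of the Control sum, and none was at 0 in either library. The part of muscle RNA in the levels of Kcnj12, Kcnj11, Kcnc4 and Kcna7 was not tested. Without the 5 muscle-type genes, 7 potassium channel genes passed 2-fold upward and 4 downward: Kcna1, Kcna2, Kcnk1 and Kcnmb4.

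**Figure D4:**
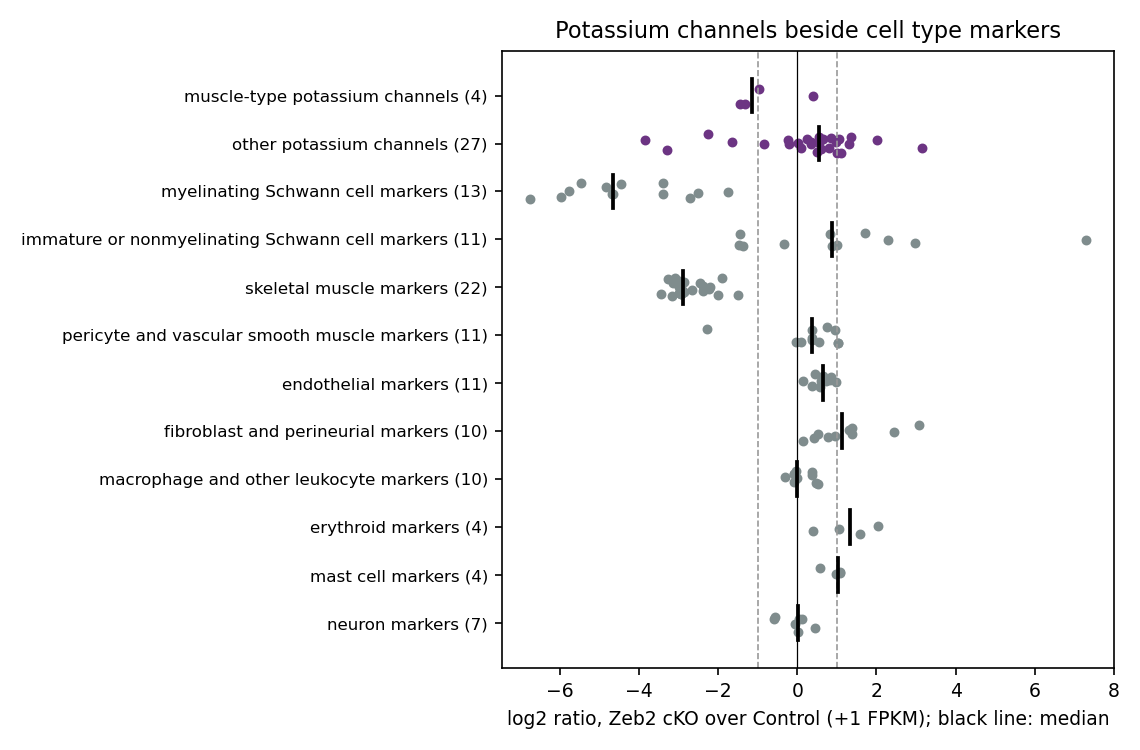
log2 ratio (horizontal axis, Zeb2 cKO over Control with 1 FPKM added) of the measured potassium channel genes, split into muscle-type and others, above the marker genes of 10 cell type lists; points are genes, black lines medians, dashed lines 2-fold, and numbers in brackets the genes plotted. The skeletal muscle and myelinating Schwann cell markers lie left of the dashed line at -1, with medians of -2.89 and -4.66, while the 27 other potassium channel genes spread over both sides with a median of 0.54.

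Tandem-pore channels held both a strongly lower and a higher member. Kcnk1, which encodes TWIK-1 (chromosome 8, 128519002 to 128554585), had 4.13 FPKM in the Zeb2 cKO library and 49.1 FPKM in the Control library, 11.9-fold lower (10.4 to 13.7). Kcnk2, which encodes TREK-1, a leak channel opened by stretch (chromosome 1, 191031809 to 191168071), had 16.6 FPKM in the Zeb2 cKO library and 6.04 FPKM in the Control library, 2.74-fold higher (2.51 to 3.0). The order of these genes was thus reversed between the libraries, since Kcnk2 stood above Kcnk1 in the Zeb2 cKO library and below it in the Control library. Kcnk3, the acid-sensitive TASK-1 channel, had 2.22 FPKM in the Zeb2 cKO library and 0.847 FPKM in the Control library, 2.62-fold higher by FPKM with a log2 ratio of 0.80. Kcnk5 (TASK-2) and Kcnk6 (TWIK-2) were within 2-fold, with log2 ratios of -0.23 and 0.34. Kcnk13, a channel known from microglia below the mean of 1 FPKM and chosen after its values were seen, had 0.366 FPKM in the Zeb2 cKO library and 1.53 FPKM in the Control library. Beside it, macrophage and other leukocyte markers had a median log2 ratio of -0.02, and 0 of 10 measured members were 2-fold apart.

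The 3 transcripts listed for Kcnk2 did not share the difference equally. The coding transcript with the highest level had 8.62 FPKM in the Zeb2 cKO library and 3.97 FPKM in the Control library, and the other coding transcript was at 4.70 FPKM and 2.07 FPKM in the same order. The noncoding one had 3.23 FPKM in the Zeb2 cKO library and close to 0 in the Control library. By the top transcript alone, Kcnk2 had a log2 ratio of 0.95 and was short of 2-fold with the added 1 FPKM. By plain FPKM both coding transcripts were more than 2-fold higher in the Zeb2 cKO library.

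Both measured pore genes of the calcium- or sodium-activated class were higher in Zeb2 cKO. The other 6 were below the mean of 1 FPKM and went both ways. Kcnn4, which encodes the intermediate-conductance calcium-activated channel KCa3.1 of red cells, lymphocytes and proliferating cells (chromosome 7, 25155282 to 25170231), had 21.7 FPKM in the Zeb2 cKO library and 1.57 FPKM in the Control library. It was 13.8-fold higher (11.3 to 17.0), the highest ratio among the measured potassium channel genes. Its place among the 31 measured genes was second in the Zeb2 cKO library and 17 in the Control library. Of its 2 transcripts, the main one had 16.7 FPKM in the Zeb2 cKO library and 1.57 FPKM in the Control library. Kcnt2, a sodium-activated channel, had 1.82 FPKM in the Zeb2 cKO library and 0.394 FPKM in the Control library, 4.61-fold higher (3.41 to 6.41), with a log2 ratio of 1.01 that became 0.88 after rescaling. After rescaling Kcnt2 fell below the mean of 1 FPKM, so its place among the measured genes rests on its Zeb2 cKO level. The small-conductance gene Kcnn1 was below the mean of 1 FPKM and level, with 0.994 FPKM in the Zeb2 cKO library and 0.921 FPKM in the Control library. Also below that mean, Kcnn2 was 2.12-fold lower (1.07 to 4.17), on about 13 Zeb2 cKO and 39 Control reads. Kcnu1 was 2.31-fold higher (1.38 to 3.85), on about 42 and 27 reads in the same order. Kcnn3, Kcnma1 and Kcnt1 were lower by less than 2-fold.

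Erythroid and mast cell markers were also higher beside Kcnn4, by smaller folds. Of 4 erythroid markers, 3 passed 2-fold upward (2 after rescaling), and the median log2 ratio was 1.32. Their summed levels were 361 FPKM in the Zeb2 cKO library and 120.2 FPKM in the Control library. Of 4 mast cell markers, 2 passed 2-fold upward (0 after rescaling), and their summed level was 62.3 FPKM in the Zeb2 cKO library and 29.2 FPKM in the Control library. The T cell marker Cd3e, not measured, had 0.0721 FPKM in the Zeb2 cKO library and 0.0241 FPKM in the Control library, on about 3 and 1 reads. The macrophage and other leukocyte list that holds it had a median log2 ratio of -0.02, with 0 of 10 measured members 2-fold apart. The fibroblast and perineurial list stood at a median log2 ratio of 1.13, and 5 of its 10 members passed 2-fold upward. Which cells carry the Kcnn4 transcripts was not tested.

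BK channels, the large-conductance calcium- and voltage-activated channels, showed an uneven set of subunits. Kcnmb4, their beta 4 subunit (chromosome 10, 115854924 to 115910579, overlapping 1700058G18Rik), had 11.7 FPKM in the Zeb2 cKO library and 38.6 FPKM in the Control library, 3.30-fold lower (2.90 to 3.76). The pore gene Kcnma1 had 0.342 FPKM in the Zeb2 cKO library and 0.513 FPKM in the Control library, far below its beta 4 subunit in both. Kcnmb1, the beta subunit of smooth muscle, overlaps Kcnip1 and had 0.267 FPKM in the Zeb2 cKO library and 0.215 FPKM in the Control library. The pore transcript stood on about 42 estimated reads in the Zeb2 cKO library and 92 in the Control library.

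**Figure D5:**
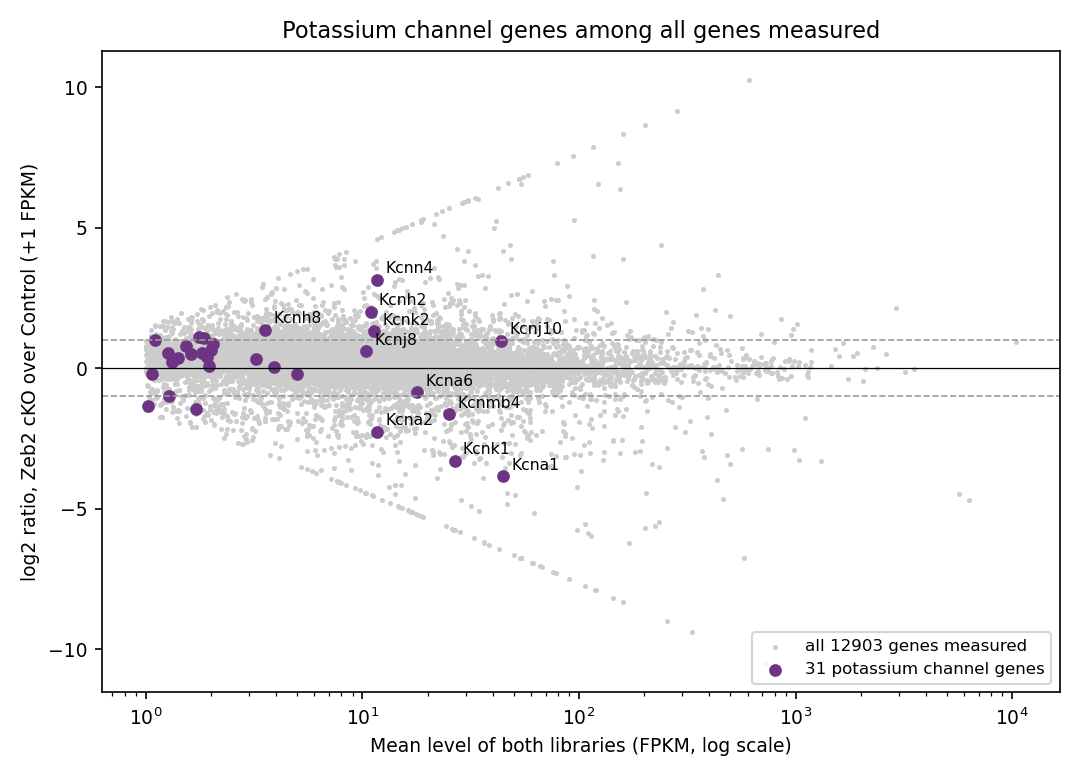
Mean level of both libraries (horizontal axis, FPKM, log scale) against log2 ratio (vertical axis, Zeb2 cKO over Control with 1 FPKM added) for all 12903 genes measured (grey) and the 31 potassium channel genes (purple), with names for those at a mean of 10 FPKM or more and for Kcnh8. Dashed lines mark 2-fold; Kcna1, Kcnk1, Kcna2 and Kcnmb4 lie below the lower line, and Kcnn4, Kcnh2, Kcnk2 and Kcnh8 above the upper one.

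The class sums followed their leading members. Voltage-gated pore subunits summed to 65.3 FPKM in the Zeb2 cKO library and 149.5 FPKM in the Control library, 0.437 of the Control sum. Tandem-pore channels summed to 32.5 FPKM in the Zeb2 cKO library and 66.5 FPKM in the Control library, and BK beta subunits to 12.0 FPKM and 38.8 FPKM in the same order. Inward rectifiers were the largest class of the Zeb2 cKO library at 75.6 FPKM, against 44.6 FPKM in the Control library. Calcium- or sodium-activated pore subunits summed to 26.3 FPKM in the Zeb2 cKO library and 5.10 FPKM in the Control library. Voltage-gated auxiliary subunits summed to 12.7 FPKM and 7.97 FPKM in the same order. Kcne1l, left out of the auxiliary sum by the rule, had 5.12 FPKM in the Zeb2 cKO library and 14.4 FPKM in the Control library. With it the auxiliary sum would be lower in the Zeb2 cKO library, so its order depends on the rule. Voltage-gated pore subunits were the largest class of the Control library.

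The 61 genes below the mean of 1 FPKM were quiet in both libraries. Of these, 28 were under 0.1 FPKM in both libraries, 3 were listed at 0 in both and 11 were listed at 0 in one. The highest was at 1.12 FPKM (Kcna4) in the Zeb2 cKO library and at 1.53 FPKM (Kcnk13) in the Control library. Nearest below the limit was Kcnn1, and nearest above it was Kcnc4.

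Promoter sequence is shown for the 2 lowest and the 2 highest ratios among the measured genes with an entry in the RefSeq promoter table, so that the letters upstream of genes that moved apart can be read side by side. Zeb2 protein is known to bind DNA through the E-box letters CACCTG, whose first letters CACCT form the core. Each window runs from 250 bases before to 50 bases after a gene start on GRCm38.p6, a different build from the mm9 of the levels, and is written 5′ to 3′ on the gene's strand. Capitals mark this motif, which reads CAGGTG on the opposite strand, and its core, which reads AGGTG there. Every full motif also holds the core. Kcnk1 is at chr8:125994852-125995151 (plus strand), Kcna2 at chr3:107101317-107101616 (plus strand), Kcnn4 at chr7:24370013-24370312 (plus strand) and Kcnh2 at chr5:24329542-24329841 (minus strand).
Kcnk1: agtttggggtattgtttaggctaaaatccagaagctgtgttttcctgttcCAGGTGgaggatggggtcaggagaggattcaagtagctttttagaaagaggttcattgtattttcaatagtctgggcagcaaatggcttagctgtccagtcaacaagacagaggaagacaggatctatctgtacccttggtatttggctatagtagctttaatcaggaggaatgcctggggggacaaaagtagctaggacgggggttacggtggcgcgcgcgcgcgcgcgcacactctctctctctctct
Kcna2: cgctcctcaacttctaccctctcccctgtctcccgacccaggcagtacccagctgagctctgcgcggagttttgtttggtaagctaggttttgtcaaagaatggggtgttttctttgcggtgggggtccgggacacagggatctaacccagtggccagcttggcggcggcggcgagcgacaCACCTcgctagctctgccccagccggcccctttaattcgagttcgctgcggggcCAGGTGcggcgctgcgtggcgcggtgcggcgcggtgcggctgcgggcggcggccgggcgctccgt
Kcnn4: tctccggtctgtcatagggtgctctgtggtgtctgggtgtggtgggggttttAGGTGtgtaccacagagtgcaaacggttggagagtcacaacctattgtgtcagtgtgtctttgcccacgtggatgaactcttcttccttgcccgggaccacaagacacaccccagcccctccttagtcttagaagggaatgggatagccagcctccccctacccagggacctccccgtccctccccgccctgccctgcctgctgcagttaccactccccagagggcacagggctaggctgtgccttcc
Kcnh2: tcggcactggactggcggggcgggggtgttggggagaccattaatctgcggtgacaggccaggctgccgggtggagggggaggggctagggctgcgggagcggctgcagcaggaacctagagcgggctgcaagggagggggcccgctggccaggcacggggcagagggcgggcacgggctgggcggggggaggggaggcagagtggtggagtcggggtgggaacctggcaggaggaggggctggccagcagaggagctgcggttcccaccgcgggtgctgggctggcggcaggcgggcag

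The Kcnk1 window, of a gene 11.9-fold lower, held CAGGTG starting 200 bases before the gene start. The Kcna2 window, of a gene 5.90-fold lower, held CAGGTG starting 15 bases and the core CACCT starting 69 bases before the start. The Kcnn4 window held the core AGGTG 198 bases before the start and no full motif, and the Kcnh2 window held neither. The table had windows for 23 of the 31 measured genes. Kcna1, the gene with the lowest ratio, had none. Of the 6 genes 2-fold lower, 5 had a window. The full motif on either strand was in 4 of these 5 (Kcna2, Kcnk1 and the muscle-type genes Kcnc4 and Kcnj12, not Kcnmb4). It was in 1 of the 12 windows of the 7 genes 2-fold higher, some of which have several starts, that of Kcnt2. These groups were set by the same ratios, and no test of the motif was made. In the 17 windows of the 11 genes within 2-fold there were 2. Of all 32851 windows, 20.2% held it, and 51.9% held the core. A match is a description of letters and shows no binding.

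Other genes of potassium handling were described by lists. Of 7 measured genes on a list of Kv channel partners and paranodal proteins, 3 passed 2-fold upward in Zeb2 cKO and 0 downward. The median log2 ratio of the 7 was 0.44. The 3 higher ones were the paranodal genes Cntnap1 (Caspr, 3.37-fold) and Cntn1 (contactin, 2.29-fold), and Dlg4, the scaffold PSD-95 (2.15-fold). Of these, Cntnap1 alone passed 2-fold after rescaling. The juxtaparanodal partners Cntnap2 and Cntn2 were below a mean of 1 FPKM. Cntnap2, the Kv1 partner Caspr2, had 0.217 FPKM in the Zeb2 cKO library and 0.562 FPKM in the Control library, 2.60-fold lower (1.55 to 4.57) on about 19 and 70 reads in that order. Cntn2 had 0.230 FPKM in the Zeb2 cKO library and 0.176 FPKM in the Control library. Of 12 measured subunits of the sodium-potassium pump, which drives potassium into cells, 3 were higher and 1 lower, with a median of 0.44. Atp1b2, the glial beta subunit, had 133 FPKM in the Zeb2 cKO library and 24.1 FPKM in the Control library, 5.52-fold higher, and the regulators Fxyd7 and Fxyd1 were 3.06-fold and 2.04-fold higher, Fxyd1 not by 2-fold after rescaling. Fxyd6 had 122 FPKM in the Zeb2 cKO library and 279 FPKM in the Control library, 2.28-fold lower. Of the 4 measured cation-chloride cotransporters, Slc12a7, which carries potassium and chloride out of cells, was 2.49-fold higher (not by 2-fold with the added 1 FPKM after rescaling) and none was 2-fold lower, with a median of 0.20. Among 3 measured HCN channels, which carry the hyperpolarization-activated current, Hcn4 was 2-fold or more higher with the added 1 FPKM, with 2.28 FPKM in the Zeb2 cKO library and 0.329 FPKM in the Control library. Of the BK gamma subunits and sulfonylurea receptors, Lrrc55 and Abcc9 were measured, with log2 ratios of 0.49 and 0.36.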

How the data were processed

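The submitters' processing notes list CASAVA, TopHat, Cufflinks and Cuffdiff, without versions, and the mouse build mm9. Per the labels' protocols, total RNA was extracted with Trizol and libraries were made with an Illumina TruSeq kit. Per the file headers, each deposited table gives the FPKM, coverage, length, locus and status of every RefSeq transcript. The deposited coverage signal is mean depth per base, not scaled to library size. Each table is listed under both samples of its group, so it was assigned to the group.

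Rows with status OK in both libraries were kept (132 of 133 member rows) and FPKM summed by symbol. Coverage times length, divided by 52.6 bases, the value of 1 read taken from 479 low values, gave estimated reads. Exact binomial (Clopper-Pearson) intervals on these were carried to the FPKM ratio. The intervals cover counting error only and are approximate. With 1 table a group, no test was made and no p-value is given. Locus starts were converted to count from 1. Reads of overlapping genes cannot be told apart.

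Named genes were Zeb2, every member at a mean of 1 FPKM or more, and partner genes 2-fold apart. Some of these and other list genes are not reported here; they remain in the counts, medians and sums. Kcna4, Kcnk13 and others outside this rule were chosen after their values were seen. Members, lists and the motif were chosen with earlier results of these data known. Of 153 list entries, 151 matched by symbol and 1 by RefSeq accession, and 1 had no match. The counting code was tested on simulated data. Python 3.11.15, pandas 2.3.3 and scipy 1.17.1 were used.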

Additional observations from a re-analysis of the deposited data

How the results depend on the processing

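No paired analysis was possible because each group has a single table, and leaving one out would leave a group empty. Every status, the top transcript of each symbol, no filter, and pseudocounts of 0.1 and 0.5 FPKM moved the counts of potassium channel genes 2-fold higher and lower (7 and 6) by no more than 1.5 times, and no gene 2-fold apart changed direction under any of the alternatives run. Over 10 alternatives run on all members the higher count ranged from 2 to 12 and the lower count from 4 to 8. With a mean of at least 5 FPKM, 10 members remained, 3 higher and 4 lower. Under the same limit 739 of all genes were higher and 618 lower. The total of all genes at that limit was not recorded, so the member counts have no background share there. After rescaling to the median gene, which divides Zeb2 cKO FPKM by 1.16, 4 members were higher (Kcnq5, Kcns3 and Kcnt2 no longer) and 8 lower (Kcna6 and Kcnj11 added), and all genes split into 776 higher and 960 lower, against 1109 and 806. With a threshold of 1.5-fold 12 members were higher and 8 lower, and 2537 of all genes higher and 1266 lower. With a threshold of 3-fold 2 members, Kcnn4 and Kcnh2, were higher and 4 lower, and 401 of all genes higher and 457 lower. Rescaling moved the log2 ratios of the class sums to -1.41 (voltage-gated pore), 0.46 (voltage-gated auxiliary), 0.55 (inward rectifier), -1.25 (tandem-pore), 2.15 (calcium- or sodium-activated) and -1.90 (BK beta), from fewer Zeb2 cKO FPKM by construction. Taking only the top transcript, the tandem-pore sum was at -1.41 and the calcium- or sodium-activated sum at 2.06, since other transcripts are left out. Alternatives added after the data were examined were the plain ratio, which put 10 members higher and 7 lower (Kcne4, Kcnj10, Kcnk3 and Kcnj11 added), and the counts without muscle-type genes (7 and 4) and without Kcna1 (7 and 5). Depth limits genes on few reads, such as Kcnc4.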
